A study of Homo sapiens with 6 samples.

Results

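The short-arm ends of 14 human chromosomes were described by the γH2AX peaks found there in UNG wild-type and UNG knockout cells after pemetrexed or cisplatin. A peak was counted at an end when its midpoint lay below 5000000 on chromosomes 1 to 12, 18 or 20, and chromosomes with a very short short arm, together with chromosomes 16, 17 and 19, were left out. By this rule 601 of the 12579 peaks in the deposited lists were members. They were 24 of 924 peaks in WT pemetrexed, 326 of 5278 in KO pemetrexed, 77 of 1807 in WT cisplatin and 174 of 4570 in KO cisplatin. The rule used position alone, so the number, width and spacing of the peaks were free to vary.

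γH2AX is histone H2AX phosphorylated on its tail, a mark that kinases of the damage response lay down on chromatin around a DNA double strand break and that can spread far from the break itself. Pemetrexed is an antifolate that blocks thymidylate synthesis, so that uracil enters DNA in place of thymine. UNG is the uracil DNA glycosylase that cuts such uracil out and starts base excision repair. Cisplatin crosslinks DNA, mostly between neighbouring guanines, and its lesions are handled largely by other repair pathways. The end of a chromosome arm carries the telomere, then duplicated subtelomeric sequence, then unique sequence, and on several arms that unique sequence is rich in genes.

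All libraries came from DLD1, a human colorectal cancer line, by chromatin immunoprecipitation and sequencing with an antibody against phosphorylated H2AX. The groups were wild type (UNG+/+) or UNG knockout (UNG-/-), each untreated, pemetrexed-treated or cisplatin-treated, with 1 library per group. The 4 drug-treated libraries had a peak list, and the untreated libraries were not analysed here. The sources used here do not give dose, treatment time or whether the knockout line was 1 clone. Read depth was unknown, and the lists give no height or score. Each list is a single library, so no difference below has a replicate check. The intervals are 95% intervals of counting error, and neighbouring peaks are not independent, which makes them too narrow.

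The question set by the study's title was how loss of UNG changed double strand break formation after pemetrexed. At the short-arm ends the KO pemetrexed list was the longest of the 4 and the WT pemetrexed list the shortest. The KO pemetrexed list held 326 peaks at the ends and the WT pemetrexed list 24, a ratio of 13.6 (exact interval 8.97 to 21.5). On the rest of the same 14 chromosomes the lists held 2287 and 658 peaks, a ratio of 3.48 (3.19 to 3.8). The odds that a peak lay at an end, rather than elsewhere on these chromosomes, were 3.91 times as high in KO as in WT after pemetrexed (conditional odds ratio, exact interval 2.55 to 6.24). With peaks within 100 kb joined into 1 region the ratio at the ends was 2 (44 against 22 regions) and the odds ratio 1.66 (0.962 to 2.94). Without chromosomes 1, 4, 7 and 11, which held the most KO pemetrexed peaks and were picked after their counts were seen, the odds ratio was 1.07 (0.613 to 1.94).

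After cisplatin no difference between the ends and the rest was detectable in the ratio of KO to WT peaks. The KO cisplatin list held 174 peaks at the ends and the WT cisplatin list 77, a ratio of 2.26 (1.72 to 2.99). The rest of the same chromosomes gave 2834 against 1139, a ratio of 2.49 (2.32 to 2.67). The odds ratio between ends and rest was 0.908, and its interval, 0.684 to 1.21, held 1.

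Between drugs, the direction at the ends depended on the genotype. In KO cells the pemetrexed list had 1.87 times as many peaks at the ends as the cisplatin list (1.55 to 2.27), while on the rest of the same chromosomes it had 0.807 times as many (0.763 to 0.853). The odds ratio of ends against rest was 2.32 (1.91 to 2.83). That rest includes the long-arm ends, described below, where the KO pemetrexed list was also longer than the KO cisplatin list. The counts there were 423 and 242, a ratio of 1.75 (1.49 to 2.06). Between short-arm and long-arm ends the KO odds ratio was 1.07 (0.835 to 1.38). The direction in KO cells was therefore not particular to the short-arm ends. In WT cells the pemetrexed list had 0.312 times as many peaks at the short-arm ends (0.188 to 0.498) and 0.578 times as many elsewhere (0.524 to 0.636). The WT odds ratio was 0.540 (0.323 to 0.873). At the long-arm ends the WT ratio between drugs was 0.506 (0.337 to 0.750). At the short-arm ends the KO ratio between drugs turned to 0.473 with peaks within 100 kb joined (44 against 93 regions). Without chromosomes 1, 4, 7 and 11 it was 0.789, with an interval, 0.553 to 1.12, that held 1. The WT odds ratio turned to 1.15 (0.582 to 2.21) without these 4 chromosomes.

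**Figure D1:**
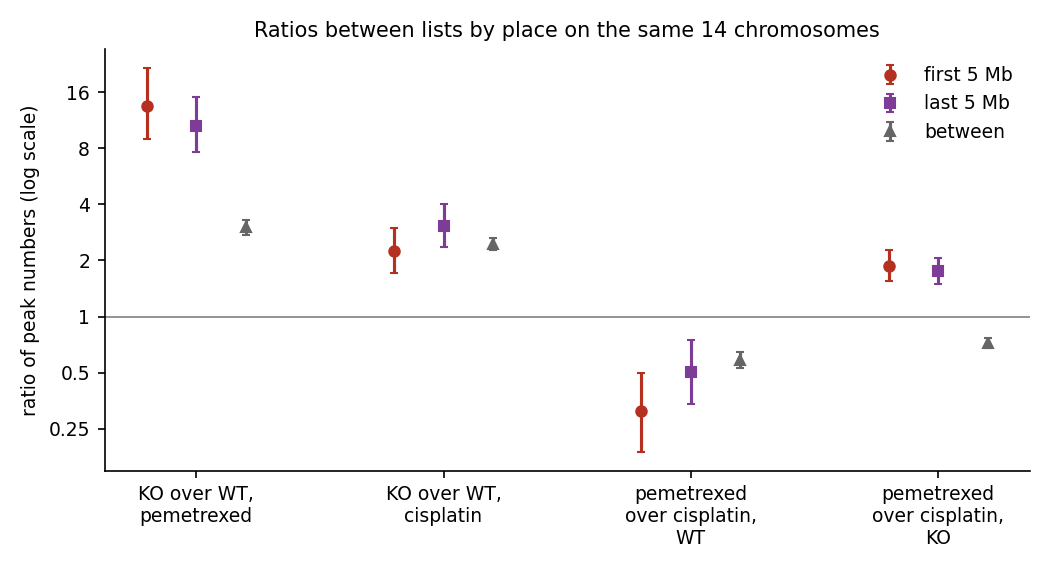
Ratios of peak numbers between lists (log scale) for 4 contrasts, in the first 5 Mb, the last 5 Mb and the stretch between on the same 14 chromosomes; points are ratios of 1 library to 1 library and bars are exact 95% counting intervals. The pemetrexed KO over WT ratio was 13.6 in the first 5 Mb, 10.6 in the last 5 Mb and 3.02 between them, while the cisplatin ratios lay between 2.26 and 3.06.

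The ends make up 3.16% of the span covered on these chromosomes. They held 12.5% of the KO pemetrexed peaks on them (exact binomial interval 11.2 to 13.8%), 6.33% of the WT cisplatin peaks (5.03 to 7.85%), 5.78% of the KO cisplatin peaks (4.98 to 6.68%) and 3.52% of the WT pemetrexed peaks (2.27 to 5.19%). The intervals of the 2 cisplatin shares overlapped. Per Mb, the ends held 4.66 KO pemetrexed peaks against 1.07 on the rest, a density ratio of 4.36 (3.87 to 4.90). The density ratio was 2.07 (1.62 to 2.61) for WT cisplatin and 1.88 (1.60 to 2.19) for KO cisplatin. WT pemetrexed peaks had a density of 0.343 per Mb at the ends and 0.307 per Mb elsewhere, and the interval of their ratio, 0.710 to 1.68, held 1.

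At the opposite ends of the same chromosomes the pemetrexed ratio was also high. The last 5 Mb before the last covered position held 423 KO pemetrexed and 40 WT pemetrexed peaks, a ratio of 10.6 (7.64 to 15). The odds ratio of KO over WT between short-arm and long-arm ends was 1.28, with an interval of 0.738 to 2.28. The KO lists had fewer peaks at the short-arm than at the long-arm ends, 0.771 times as many for pemetrexed (0.665 to 0.893) and 0.719 times as many for cisplatin (0.588 to 0.877). The WT pemetrexed ratio was 0.6 (24 against 40, interval 0.346 to 1.02) and the WT cisplatin ratio 0.975 (77 against 79, 0.703 to 1.35).

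The KO pemetrexed peaks were concentrated on a few arms. Chromosome 1 held 103 of the 326, chromosome 4 held 71, and chromosomes 7 and 11 held 46 each, so these 4 chromosomes had 81.6% of them. The remaining KO pemetrexed peaks were 23 on chromosome 5, 18 on chromosome 20, 12 on chromosome 10, 6 on chromosome 12 and 1 on chromosome 9. Chromosomes 2, 3, 6, 8 and 18 had 0. The 4 leading chromosomes were the same 4 in the WT cisplatin list, where they held 67.5% of the peaks, and they held 56.3% in KO cisplatin. In the WT pemetrexed list they held 25%, and its 24 peaks were spread over 13 of the 14 chromosomes with at most 4 on any of them.

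**Figure D2:**
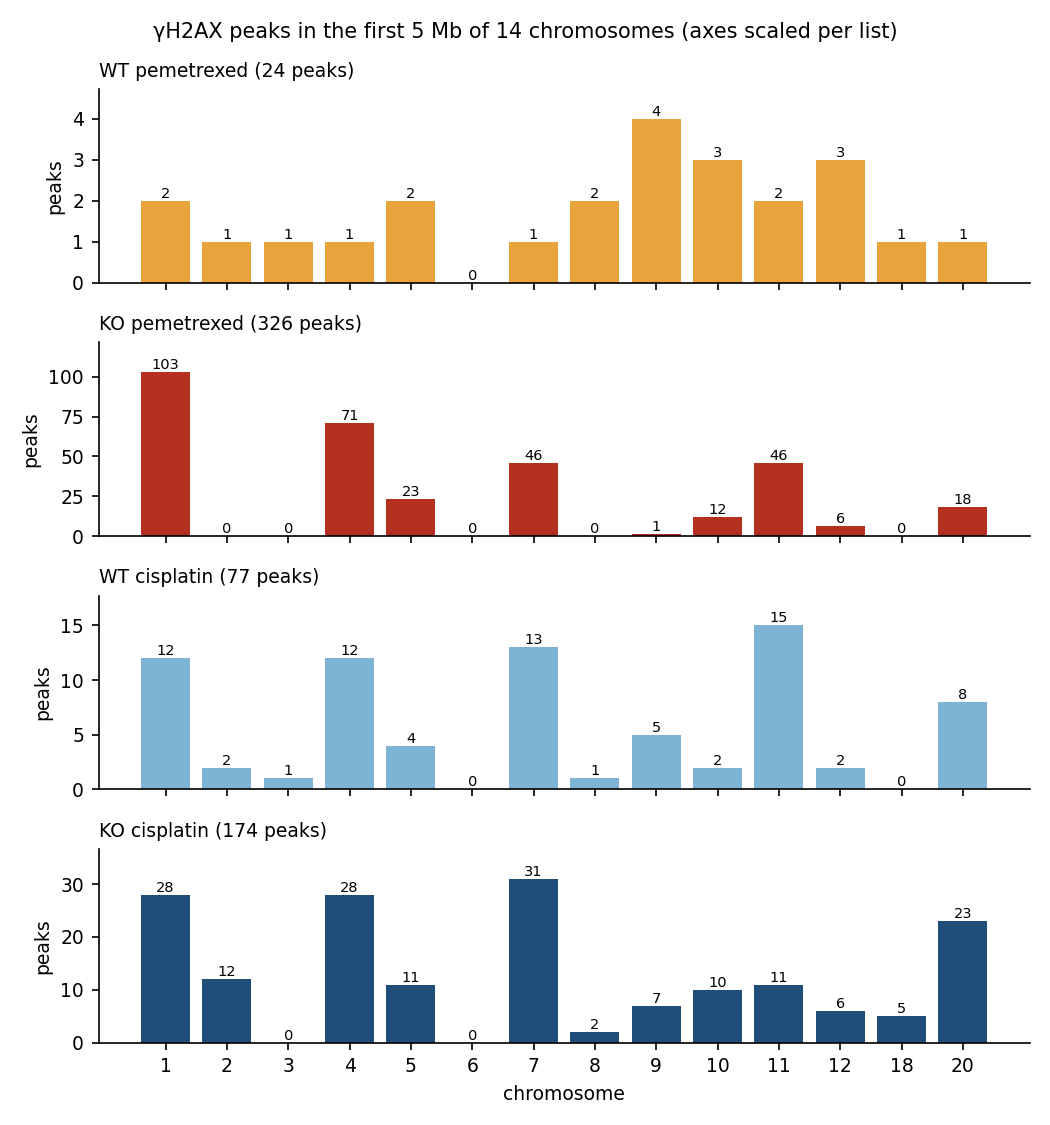
Number of peaks in the first 5 Mb of each of the 14 chromosomes, 1 panel per list and 1 library per list, with each vertical axis scaled to its own list. KO pemetrexed bars reach 103 on chromosome 1 and 71 on chromosome 4 and are at 0 on chromosomes 2, 3, 6, 8 and 18, while the 24 WT pemetrexed peaks are spread thinly.

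The tip of the short arm of chromosome 4 held the highest share of a chromosome's peaks in any of the 4 lists. Of the 117 KO pemetrexed peaks on chromosome 4, 71 lay in the first 5 Mb, a share of 60.7% (51.2 to 69.6%) in 2.63% of the covered span. The KO cisplatin list had 28 of 142 there (19.7%, 13.5 to 27.2%), the WT cisplatin list 12 of 63 (19%, 10.2 to 30.9%) and the WT pemetrexed list 1 of 37 (2.70%, 0.0684 to 14.2%). The KO pemetrexed share lay above the interval of every other list. Chromosome 4 is otherwise poor in genes, and its short-arm tip is known as the gene-rich stretch lost in Wolf-Hirschhorn syndrome.

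Chromosome 1 had 103 of its 469 KO pemetrexed peaks in the first 5 Mb, 22.0% (18.3 to 26.0%), against 6.13% in KO cisplatin, 6.67% in WT cisplatin and 2.5% in WT pemetrexed. On chromosome 5 the share was 22.5% in KO pemetrexed (14.9 to 31.9%) and 6.36% in KO cisplatin (3.22 to 11.1%), and all 23 KO pemetrexed peaks there had midpoints before 1.58 Mb. Chromosome 7 was more even between the KO lists, with 18.4% of the pemetrexed peaks (13.8 to 23.8%) and 14.6% of the cisplatin peaks (10.1 to 20%) at its end.

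The end of chromosome 11 held 46 KO pemetrexed and 2 WT pemetrexed peaks, a ratio of 23 with a wide interval (6.02 to 196). After cisplatin it held 11 KO and 15 WT peaks, a ratio of 0.733 whose interval, 0.305 to 1.71, held 1. The cisplatin ratios of chromosomes 1 and 4 were 2.33 each (1.15 to 5.04) and that of chromosome 7 was 2.38 (1.21 to 4.97). These intervals overlap that of chromosome 11, and the difference between the arms was not tested. The short-arm end of chromosome 11 is known for an imprinted gene cluster with IGF2 and H19 and for several mucin genes. No peak was assigned to any of these genes, because gene positions in hg18, the build of the peak lists, were not used here.

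Several arms held few pemetrexed peaks or none. Chromosomes 2, 3, 8, 9 and 18 were picked because WT pemetrexed peaks outnumbered KO pemetrexed peaks on each. They had 9 WT and 1 KO pemetrexed peak at their ends, while the rest of the same 5 chromosomes had 269 and 767. The largest difference on 1 of them was 4 WT against 1 KO peak, on chromosome 9 (ratio 0.25, 0.00508 to 2.53). On each of the 5 the interval of the KO over WT ratio held 1, so no single arm shows a reversal. Their ends were not empty in the KO cisplatin list, which had 26 peaks there. Chromosome 18 carries TYMS at its short-arm tip, the gene of thymidylate synthase, the enzyme that pemetrexed inhibits. The KO pemetrexed list had no peak anywhere in the first 5 Mb of chromosome 18, where WT pemetrexed had 1, WT cisplatin 0 and KO cisplatin 5. That list had only 23 peaks on the whole of chromosome 18, and the first 5 Mb are 6.57% of its covered span. The interval of the 0% share reached 14.8%, so the absence says little about this end. Chromosome 6 had no peak of any list in its first 5 Mb, although the 4 lists together held 345 peaks on it. The earliest of them, from KO cisplatin, had its midpoint at 5.63 Mb.

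Chromosome 9 held the most WT pemetrexed peaks of any end. They were 4 in number, and 3 of them each lay within 100 kb of the next (238960 to 239422, 301507 to 302261 and 340779 to 341342), the only such group in that list at the ends. The KO pemetrexed list had 1 peak in the first 5 Mb of chromosome 9 (4344221 to 4344885) and 232 on the rest of it. The share at the end was 0.429% in KO pemetrexed (0.0109 to 2.37%) and 12.5% in WT pemetrexed (3.51 to 29.0%). These intervals did not overlap, but chromosome 9 was picked for its WT pemetrexed count. Its WT share rests on 4 peaks, 3 of them neighbours, so no difference between the lists is read from it.

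Summed over the arms, peak density in KO pemetrexed was highest in the second Mb. Chromosomes 1 and 4 gave 59 and 36 of the peaks there, and it was also the fullest Mb on chromosomes 5, 10 and 12. On chromosome 11 the first Mb held the most (35), on chromosome 7 the third (20) and on chromosome 20 the fourth (12). The only such peak of chromosome 9 lay in the fifth. The first 5 bins of 1 Mb held 80, 142, 73, 28 and 3 KO pemetrexed peaks summed over the 14 chromosomes. The same bins held 32, 50, 48, 28 and 16 KO cisplatin peaks, 15, 18, 20, 14 and 10 WT cisplatin peaks, and 8, 5, 5, 4 and 2 WT pemetrexed peaks. Among these 5 bins the KO pemetrexed count exceeded the KO cisplatin count in the first 3. Between 3 and 4 Mb both KO lists had 28, and between 4 and 5 Mb the KO pemetrexed list had 3 peaks and the KO cisplatin list 16. From 5 to 10 Mb the KO lists were level, with 123 pemetrexed and 122 cisplatin peaks.

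**Figure D3:**
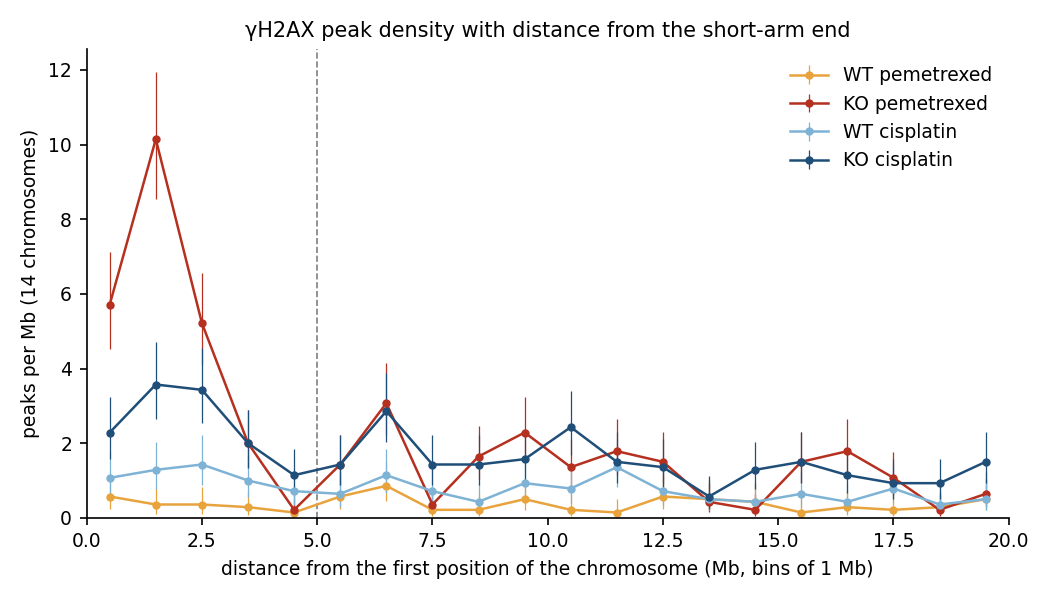
Peaks per Mb over the 14 chromosomes against distance from the first position of the chromosome, in bins of 1 Mb; points are 1 library each, bars are exact Poisson 95% intervals, and the dashed line marks 5 Mb. KO pemetrexed reaches 10.1 peaks per Mb in the second bin and 0.214 in the fifth, and the other 3 lists stay at or below 3.57 within the first 5 Mb.

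The median midpoint of the KO pemetrexed members was 1.67 Mb from the start of the chromosome (interval 1.52 to 1.75), against 2.04 Mb in KO cisplatin (1.83 to 2.34), 2.24 Mb in WT cisplatin (1.82 to 2.85) and 1.84 Mb in WT pemetrexed (0.439 to 2.99). In the outermost stretch, below 500 kb, there were 15 of the 326 KO pemetrexed peaks, 8 of 174 KO cisplatin peaks, 2 of 77 WT cisplatin peaks and 7 of 24 WT pemetrexed peaks. The peak nearest to a chromosome start was a WT pemetrexed peak on chromosome 20 (98846 to 99478). The nearest ones of the KO pemetrexed and KO cisplatin lists were on the same chromosome (212139 to 213019 and 222918 to 223857), and that of WT cisplatin was on chromosome 11 (296659 to 297583).

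For each list, the peaks just inside and just outside the 5 Mb limit were located. The last KO pemetrexed peak inside it had its midpoint at 4344553 on chromosome 9, and the first outside was at 5247482 on chromosome 7. For KO cisplatin these peaks were at 4973553 to 4974392 on chromosome 9 and 5155528 to 5156402 on chromosome 11. In WT cisplatin they were at 4997565 to 4998197 on chromosome 20 and 5178475 to 5179186 on chromosome 3. In WT pemetrexed both were on chromosome 9, at 4879385 to 4879964 and 5032806 to 5033307.

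In windows of 1 Mb, a window was counted as higher in KO when its KO peaks numbered at least 2 times the larger of the WT count and 3. After pemetrexed 14 of the 70 windows at the ends passed, 20%, where 8.36% of all 2992 windows of the genome and 5.99% of the 2221 windows on the same 14 chromosomes passed. After cisplatin 9 of the 70 passed, 12.9%, against 6.08% and 4.73%. The cisplatin count was 2 at a fold of 3 and 5 with windows of 500 kb. The rule asks for a minimum number of KO peaks, so dense places pass more often at the same KO to WT ratio. KO density at the ends and on the rest was 4.66 and 1.07 peaks per Mb after pemetrexed and 2.49 and 1.32 after cisplatin. After cisplatin the KO to WT ratio itself was not higher at the ends, 2.26 against 2.49. No window at the ends was higher in WT by the same rule for either drug. The shares over all windows were 0.0334% for each drug. The most WT peaks in any window at the ends were 3 after pemetrexed and 7 after cisplatin. The rule could therefore pass no WT pemetrexed window there and hardly any WT cisplatin window, so their absence says little. The 14 pemetrexed windows lay on chromosomes 1, 4, 5, 7, 10, 11 and 20.

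The window with the most peaks at the ends was the second Mb of chromosome 1 (1000001 to 2000000), with 59 KO pemetrexed, 2 WT pemetrexed, 10 KO cisplatin and 5 WT cisplatin peaks. The second Mb of chromosome 4 (1000001 to 2000000) had 36, 0, 10 and 2 in the same order. The first Mb of chromosome 11 (1 to 1000000) had 35, 0, 4 and 7, and here WT cisplatin exceeded KO cisplatin. On chromosome 7 the window 2000001 to 3000000 had 20, 0, 15 and 7, and on chromosome 4 the window 2000001 to 3000000 had 24, 0, 10 and 4. In each of these 5 windows the KO pemetrexed count was the highest and the WT pemetrexed count the lowest. The windows were picked for the most peaks over the 4 lists, where KO pemetrexed had 326 of the 601 members and WT pemetrexed 24. This order is therefore largely set by the choice of windows.

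The KO pemetrexed list was the most uneven over the windows. Of the 326 peaks, 50% lay in 5 windows, and 28 of the 70 windows held any (40.0%, against 23.7% over all windows). The KO cisplatin peaks needed 10 windows for 50% and were present in 43 (61.4%, against 51.1%). WT cisplatin needed 10 and was present in 38 (54.3%, against 33.4%), and WT pemetrexed needed 7 and was present in 19 (27.1%, against 24.4%). In 15 windows no list had a peak and in 5 windows all 4 had one.

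Peaks at the ends were wider in KO pemetrexed than in any other list. Their median width was 1560 bp (exact order-statistic interval 1437 to 1799), with a range from 508 to 14541 bp. The KO cisplatin median was 855 bp (833 to 887), the WT cisplatin median 712 bp (651 to 787) and the WT pemetrexed median 579.5 bp (547 to 623). The WT pemetrexed peaks ran from 406 to 754 bp, so that its widest peak was narrower than the median of each KO list.

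**Figure D4:**
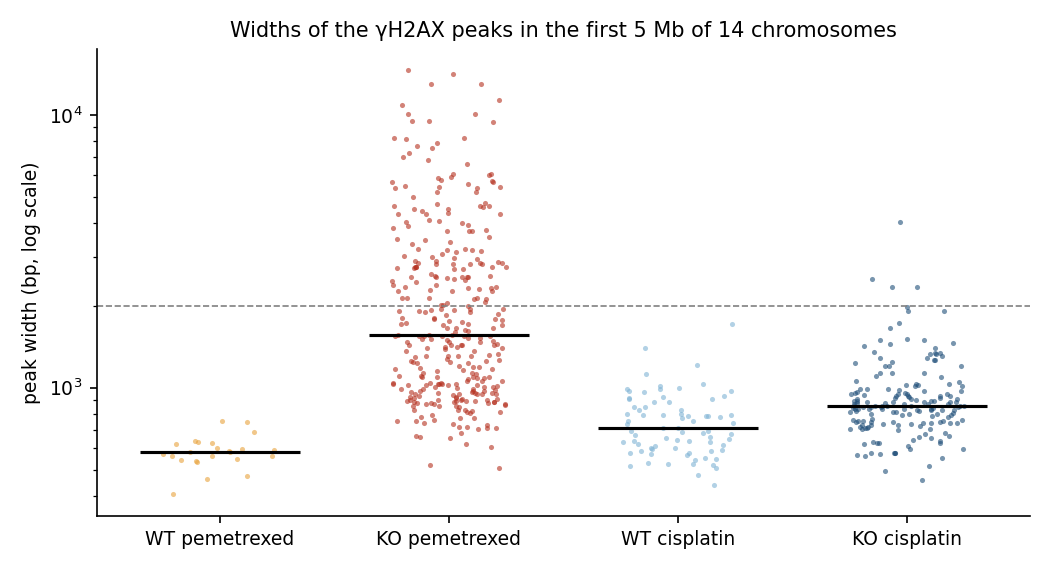
Width of every peak in the first 5 Mb of the 14 chromosomes (log scale), by list, with 1 point per peak, a black line at the median and a dashed line at 2 kb; the sideways spread of the points has no meaning. The KO pemetrexed peaks run from 508 to 14541 bp with 132 of 326 at or above 2 kb, and the WT pemetrexed peaks stay between 406 and 754 bp.

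Compared with the rest of the same chromosomes, KO pemetrexed peaks were wider at the ends, with medians of 1560 bp and 1073 bp (1046 to 1109), and intervals that did not overlap. A width of 2 kb or more was reached by 40.5% of the members (35.1 to 46.0%) and 17% of the rest (15.5 to 18.6%). At the long-arm ends the median was 1479 bp (1372 to 1630) and the share 35.0%, close to the short-arm values. WT cisplatin peaks were also wider at the ends, 712 bp against 613 bp (607 to 624), and KO cisplatin peaks by less, 855 bp against 800 bp (790 to 810). WT pemetrexed peaks had about the same median at the ends, 579.5 bp, as elsewhere, 583 bp (577 to 588). No WT peak at the ends reached 2 kb after either drug, and 4 of the 174 KO cisplatin peaks did.

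More and wider peaks added up in the covered bases. KO pemetrexed peaks covered 815 kb of the 70 Mb at the ends, 1.16%, with a mean width of 2500 bp, and WT pemetrexed peaks covered 14 kb, 0.0200%, with a mean width of 583.5 bp. The ratio was 58.2 at the ends and 8.65 on the rest of the same chromosomes. After cisplatin KO peaks covered 166 kb (mean width 957 bp) and WT peaks 58.0 kb (mean width 754 bp), a ratio of 2.87, against 3.23 on the rest.

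Width differed between arms within the KO pemetrexed list. On chromosome 11 the median of its 46 peaks was 3469 bp, and they covered 193 kb. The median was 1939 bp on chromosome 1, 1550 bp on chromosome 4, 1433 bp on chromosome 5 and 1174.5 bp on chromosome 7. Chromosomes 10 and 20 had medians of 990.5 and 949.5 bp. On chromosome 11 the 11 KO cisplatin peaks were also the widest of the well-filled arms, with a median of 1724 bp against 1000 bp or less on chromosomes 1, 4, 7 and 20.

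Chromosome 4 carried the widest KO pemetrexed member, 14541 bp long (1720619 to 1735160), followed by members of 14085 bp on chromosome 1 (2092797 to 2106882) and, at 592957 to 605941 on chromosome 11, of 12984 bp. None of these 3 stretches met a peak of another list. The 3 widest KO cisplatin members were all on chromosome 11, with 4052 bp (1736285 to 1740337), 2509 bp (1477975 to 1480484) and 2347 bp (982185 to 984532), and the last met a KO pemetrexed peak. In WT cisplatin the widest were 1718 bp (1474961 to 1476679) and 1402 bp (914431 to 915833) on chromosome 11 and 1213 bp on chromosome 7 (2501439 to 2502652). The widest WT pemetrexed member, on chromosome 9 (301507 to 302261), was 754 bp long. Those next in width measured 750 bp (chromosome 10, 411141 to 411891) and 687 bp (chromosome 2, 1577344 to 1578031).

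KO pemetrexed peaks at the ends lay in runs. Of the 326, 311 (95.4%) were within 100 kb of another peak of the list and 61.3% within 10 kb, against 81.9% and 42.5% on the rest of the same chromosomes. The shares within 100 kb were 69.0% for KO cisplatin, 35.1% for WT cisplatin and 12.5% for WT pemetrexed, in the order of their peak numbers, which by themselves bring peaks closer. Joined within 100 kb, the 326 KO pemetrexed peaks formed 44 domains, 7.41 peaks to a domain, where the rest of the same chromosomes had 3.06. The density of this list was also higher at the ends, 4.66 against 1.07 peaks per Mb, which by itself brings peaks closer. Whether the runs go beyond that was not tested. The 174 KO cisplatin peaks formed 93 domains, the 77 WT cisplatin peaks 61 and the 24 WT pemetrexed peaks 22.

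Of the 44 KO pemetrexed domains, 15 were single peaks and 29 held 2 or more. These 29 spanned 6.03 Mb, 8.61% of the ends, and their median length was 94.3 kb. The 5 with the most peaks held 192 of the 326, 58.9%. The longest ran for 1274 kb on chromosome 1 (1345878 to 2619458) and held 68 KO pemetrexed peaks that covered 15.2% of it, with 14 KO cisplatin, 5 WT cisplatin and 1 WT pemetrexed peak inside. On chromosome 4 a domain of 686 kb (1562685 to 2248464) held 39 peaks, and on chromosome 11 a domain of 618 kb (366871 to 984677) held 35 peaks that covered 22.7% of it. The other two were 394 kb on chromosome 1 (828211 to 1222535) with 30 peaks and 468 kb on chromosome 7 (2250047 to 2717801) with 20 peaks. That on chromosome 7 was the most thinly covered, at 5.61%, and held 10 KO cisplatin peaks.

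**Figure D5:**
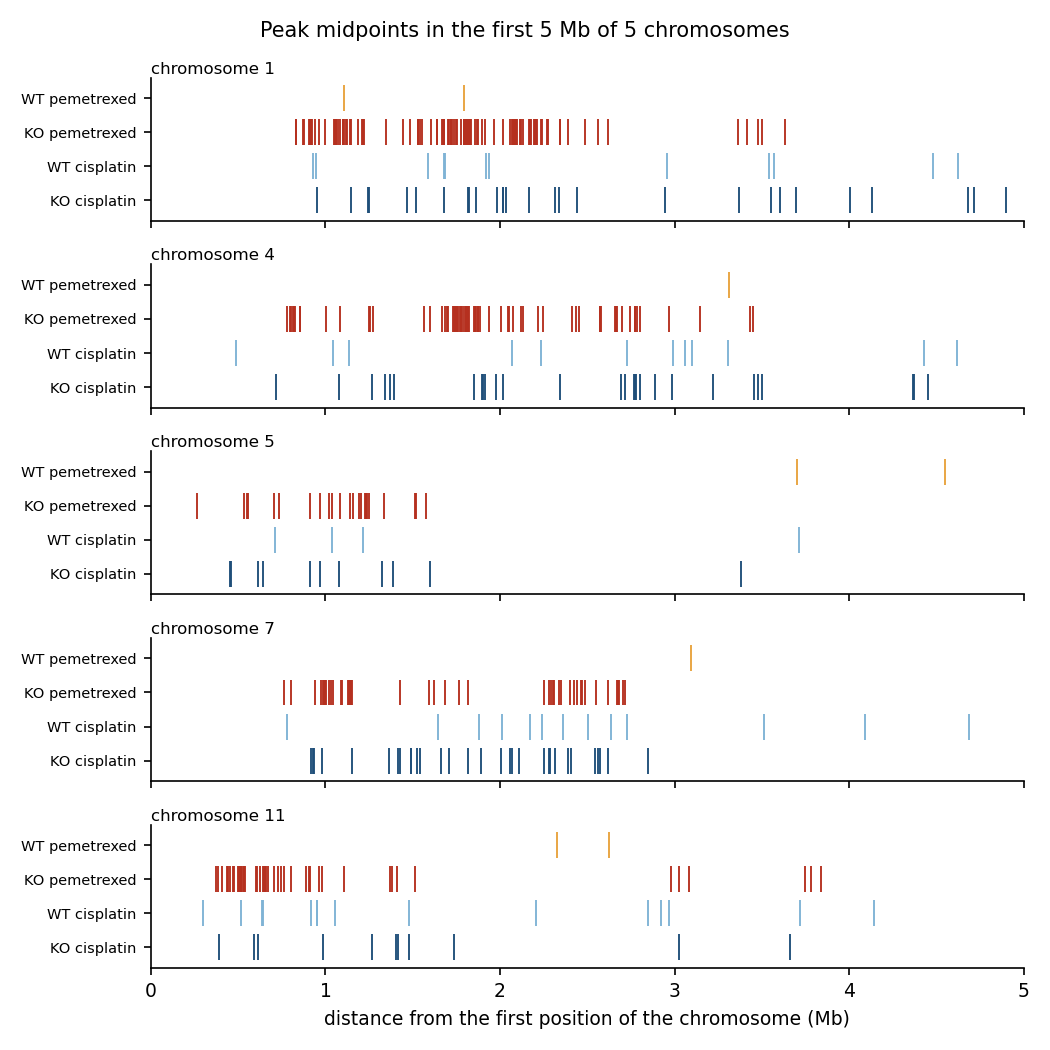
Midpoints of the peaks in the first 5 Mb of chromosomes 1, 4, 5, 7 and 11 against distance from the first position of the chromosome, with 1 row per list and 1 tick per peak. KO pemetrexed ticks form runs, the longest with 68 peaks on chromosome 1, and the WT pemetrexed rows hold 2, 1, 2, 1 and 2 ticks.

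Peaks in the larger domains were wider. In the 12 domains of 5 or more peaks, 266 peaks had a median width of 1788.5 bp (1544 to 2049). In the 17 domains of 2 to 4 peaks the median of 45 peaks was 1243 bp (1033 to 1544), and the 15 single peaks had a median of 952 bp (754 to 1406). The first interval overlapped the second at a single value and did not overlap the third. Gaps were measured from edge to edge, so wider peaks join somewhat more readily, and width also differed between arms. Neither was taken into account here.

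Peaks of the cisplatin lists often lay inside these KO pemetrexed domains. In KO cisplatin 61 of 174 members (35.1%) and in WT cisplatin 27 of 77 (35.1%) were inside the 8.61% of the ends that the 29 domains spanned. In WT pemetrexed 3 of 24 were. The 5 fullest of these domains lay on chromosomes 1, 4, 7 and 11. Those arms alone held 56.3% of the KO cisplatin and 67.5% of the WT cisplatin members. Whether the shares inside the domains go beyond such common peak-rich arms was not tested. The median distance from a KO cisplatin member to the nearest KO pemetrexed peak was 59.8 kb, against 307 kb on the rest of the same chromosomes, and that from a WT cisplatin member was 58.8 kb against 371 kb. From a WT pemetrexed member it was 568 kb, against 1499 kb on the rest. These distances also shorten with the density of KO pemetrexed peaks, which was higher at the ends.

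Members of different lists seldom overlapped, taking 1 bp as the minimum. A peak of another list was met by 21 of the 326 KO pemetrexed members, 6.44%, against 7.64% over the whole genome. In KO cisplatin 16 of 174 did, 9.20%, against 8.07%. In WT cisplatin 4 of 77 did, 5.19%, against 5.82%, and in WT pemetrexed 2 of 24, 8.33%, against 3.49%. The members' shares were thus near those of their lists, and the WT pemetrexed share rests on 2 peaks. Lists of 1 genotype could have been called against the same control library, and the sources used here do not name it.

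Most of the shared places were between the 2 KO lists. There 16 peaks of each list met, 4.91% of the KO pemetrexed members (2.83 to 7.85%) and 9.20% of the KO cisplatin members (5.35 to 14.5%). The same pair gave 5.55% and 4.69% on the rest of the same chromosomes. The share of KO cisplatin members was 2.30% with a reciprocal overlap of 50% and 28.7% with a gap of up to 10 kb. KO pemetrexed and WT cisplatin shared 4 peaks, 1.23% and 5.19% of the 2 lists. WT and KO cisplatin shared 1 peak, 1.30% of the WT and 0.575% of the KO members. WT pemetrexed met KO pemetrexed at 2 peaks and neither cisplatin list at any, so no region at the ends held peaks of both WT lists. On the rest of the same chromosomes such overlaps were rare as well, with 4 of 658 WT pemetrexed peaks meeting WT cisplatin (0.608%) and 8 meeting KO cisplatin (1.22%), both within the interval that 0 of 24 allows. The upper bound of the exact interval for the share of WT pemetrexed members meeting a WT cisplatin peak was 14.2%.

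Of the 579 regions covered at the ends by any list, 558 had a peak of 1 list, 20 of 2 lists, 1 of 3 and 0 of all 4. The region with 3 lists was 1403 bp on chromosome 1 (1678685 to 1680088), where the KO pemetrexed peak spanned all 1403 bp, the WT cisplatin peak 971 bp and the KO cisplatin peak 779 bp. The 2 places where both pemetrexed lists had a peak were also on chromosome 1. At 1104246 to 1110031 a KO peak of 5785 bp contained a WT peak of 560 bp, and at 1791966 to 1794537 a KO peak of 2571 bp contained a WT peak of 580 bp. These were the 2 WT pemetrexed members of chromosome 1, so both of its WT peaks lay within wider KO peaks.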

How the data were processed

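γH2AX peak lists of 4 drug-treated DLD1 libraries were used, 1 library per group, with groups taken from the sample titles. The authors' deposited files hold peak positions in base pairs and no score; per the submitters' processing notes the tools were Bowtie and MACS 1.4 and the build was hg18. The sources used here do not give the control library, calling threshold, filters or read depth. Whether starts count from 0 or 1 is unknown, so a start may differ by 1 bp. No sequence or gene was assigned, since the tables at hand were for another build.

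Members and lists were chosen with earlier results of these data known. Counts were compared by ratios and conditional odds ratios with exact 95% intervals (Python 3.11.15, scipy 1.17.1), tested on simulated data, without p-values. Overlaps and windows did not use the 24 peaks on unplaced contigs. Windows ran from position 1 to the last covered position. Named were the 3 widest peaks per list, the 5 fullest windows, the 5 fullest KO pemetrexed domains, regions of 3 or more lists or of both WT lists, and the peaks at the start and the limit. Regions named for other reasons were chosen after their values were seen. Alternatives were other end lengths, joining, a width minimum, omitted chromosomes, and other window and overlap settings.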

Additional observations from a re-analysis of the deposited data

Results flagged for a closer look

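At the ends, the ratio of KO to WT peaks differed between the drugs. It was 13.6 for pemetrexed and 2.26 for cisplatin, a factor of 5.99 (conditional odds ratio, exact interval 3.6 to 10.3). The rest of the same chromosomes gave a factor of 1.4 (1.25 to 1.56). That rest includes the long-arm ends, where the pemetrexed and cisplatin ratios were 10.6 and 3.06 and so differed as well. At the short-arm ends without chromosomes 1, 4, 7 and 11 the pemetrexed and cisplatin ratios were 3.33 and 3.04. With peaks within 100 kb joined they were 2 and 1.52. Each count is from 1 library, and a difference between single libraries and an effect of genotype and drug cannot be told apart.

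Peaks were also present at the short-arm ends that the rule left out. The first 5 Mb of chromosomes 16, 17 and 19 held 12 WT pemetrexed, 608 KO pemetrexed, 63 WT cisplatin and 178 KO cisplatin peaks, or 0.8, 40.5, 4.20 and 11.9 per Mb. They stand outside the comparisons above, and were listed because each count exceeded 3, which tests no difference between lists.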

How the results depend on the processing

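Of 328 alternative values for 22 results, 266 stayed within the interval of the reported value (or within 1.5 times it for covered bases and counts), 59 moved and 3 reversed; the cause was not tested. Omitting chromosomes in groups and adding chromosomes 16, 17 and 19 were chosen after the data were seen. No paired analysis was possible because there was a single library per group, and a stricter calling score could not be applied because the lists hold none.

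Leaving out 1 chromosome at a time moved 3 of 196 values. The KO ratio between drugs ranged from 1.53 (without chromosome 1) to 2.04 (without chromosome 20), and the KO pemetrexed share at the ends from 10.2% (without chromosome 4) to 13.7% (without chromosome 9).

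With ends of 2 Mb, the KO ratio between drugs was 2.71 and its odds ratio 3.31. The shares at the ends were 1.91% in WT pemetrexed, 8.50% in KO pemetrexed, 2.71% in WT cisplatin and 2.73% in KO cisplatin. With ends of 10 Mb, the pemetrexed KO over WT ratio was 7.88 and its odds ratio 2.27, the KO ratio between drugs 1.52 and its odds ratio 1.90, and the pemetrexed ratio of covered bases 28.9. The shares, in the same order, were 8.36, 17.2, 10.8 and 9.84%.

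With peaks within 10 kb joined, the pemetrexed KO over WT ratio was 7.5, the KO ratio between drugs 1.15 and its odds ratio 1.82, the KO pemetrexed share 9.80% and its median width 1839.5 bp. With peaks within 100 kb joined, the KO over WT ratios were 2 for pemetrexed and 1.52 for cisplatin, the pemetrexed odds ratio 1.66, and the KO ratio between drugs reversed to 0.473 with an odds ratio of 1.2. The KO shares were then 5.56% for pemetrexed and 4.66% for cisplatin. With peaks of at least 600 bp alone, which leaves 8 WT pemetrexed members, the pemetrexed KO over WT ratio was 40.5, that of covered bases 153, the WT ratio between drugs 0.140 and the WT cisplatin share 8.09%. Against the interior alone the KO pemetrexed share was 14.9%.

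Without chromosomes 1 and 4, the pemetrexed KO over WT ratio was 7.24 and its odds ratio 2.10, the KO ratio between drugs 1.29 and its odds ratio 1.57, and the KO shares 7.5% for pemetrexed and 4.90% for cisplatin. Without chromosomes 1, 4, 7 and 11, the KO over WT ratios were 3.33 for pemetrexed, with an odds ratio of 1.07, and 3.04 for cisplatin. The WT ratio between drugs was 0.720 and its odds ratio reversed to 1.15 (0.582 to 2.21). The KO ratio between drugs reversed to 0.789 (0.553 to 1.12), with an odds ratio of 1.01. The intervals of both reversed values held 1. The shares were 3.95% in KO pemetrexed, 3.26% in WT cisplatin and 3.89% in KO cisplatin. With chromosomes 16, 17 and 19 added, the pemetrexed KO over WT ratio was 25.9, the KO ratio between drugs 2.65, and the shares 20.6% in KO pemetrexed, 8.93% in WT cisplatin and 8.97% in KO cisplatin.

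Of the windows higher in KO after cisplatin, 2 passed at a fold of 3 and 5 with windows of 500 kb, against 9. The share of KO cisplatin members meeting a KO pemetrexed peak was 2.30% with a reciprocal overlap of 50% and 28.7% with a gap of up to 10 kb. Over the 6 pairs of lists these settings gave 6 and 81 shared peaks, against 23. Numbers of peaks are also limited by read depth, which is unknown.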
